A study of Homo sapiens with 3 samples.

Results

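The 2 control libraries of the series describe the baseline transcriptome, under control siRNA, of LNCaP-abl, a prostate cancer line derived from LNCaP that grows without androgen. They are 2 of the 3 samples of the series and were chosen by their labels as those that received control siRNA. The remaining sample, in which E2F1 was silenced, is not used here. The cells were kept in medium free of phenol red with serum stripped of steroids by charcoal, were transfected with control siRNA by a lipid reagent, and gave up their RNA 72 h later. Both libraries, called control 0 and control 1 after their labels, come from this line alone, and both carry the transfection, so untransfected cells and androgen-treated cells have no counterpart among them. The labels do not say whether they came from separate cultures, so the spread between them may be technical.

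LNCaP cells are prostate adenocarcinoma cells of luminal type. In luminal cells androgen, together with the pioneer factor FOXA1 and the homeobox factor HOXB13, drives secretory genes such as the kallikreins KLK2 and KLK3, the second of which encodes prostate-specific antigen. LNCaP-abl was selected for growth in androgen-depleted medium, and the line has served as a model of tumours that regrow after androgen withdrawal.

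The files list 22613 genes in each library with 1 value each, in FPKM, fragments per kilobase of transcript scaled to the size of the library, a unit that corrects for gene length and so allows levels of different genes to be compared. Read counts were not given, so depth is unknown and no counting interval can be stated. Sorted by size, the values of both libraries were nearly the same (at most 0.0653 log2 units apart at any place), so the files give no information on a difference in total output. With 2 samples of 1 group there was nothing to test between groups. Pairs of values below are in the order control 0 and control 1, a single level is the mean of both, and a difference is control 1 minus control 0 on the log2(FPKM + 1) scale, which understates differences of low genes.

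Most listed genes were detected, over a wide range. The median gene stood at 2.95 FPKM, 14348 genes (63.5%) had a mean of at least 1 FPKM, 6820 (30.2%) at least 10 and 699 (3.09%) at least 100. Listed at 0 in both libraries were 1254 genes (5.55%). Protein-coding genes, 13654 by their GENCODE names, had a median of 7.50 FPKM, and 58 of them were at 0 in both. The 4065 long noncoding genes had a median of 0.345 FPKM, the 509 pseudogenes 1.46 FPKM and the 1654 genes that carry only a Cufflinks locus name 0.192 FPKM. These shares describe the genes that are listed, and genes outside the list were not analysed here.

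All 5 genes that mark the line as prostate luminal were in the upper part of the range. FOXA1, the pioneer factor, was at 125 and 111 FPKM, HOXB13, a homeobox factor of the prostate, at 123 and 119 FPKM, and ACPP, prostatic acid phosphatase, at 62.6 and 65.2 FPKM. The keratins of simple epithelium KRT8 (111 and 121 FPKM) and KRT18 (146 and 141 FPKM) stood beside them. The label of the line and its markers are therefore not at odds.

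On the wider luminal list 20 of 21 measured members reached 1 FPKM (95.2%, against 63.5% of all listed genes) and 16 reached 10 FPKM (76.2%, against 30.2%). Its highest members by mean were FOLH1, STEAP1 and STEAP2, proteins of the cell surface, and KRT18 came next. FOLH1, which encodes prostate-specific membrane antigen, was at 318 and 339 FPKM, and STEAP1 and STEAP2, of the metalloreductase family, were at 191 and 208 FPKM and at 151 and 146 FPKM. CDH1, the adhesion protein E-cadherin, was at 126 and 100.3 FPKM, with a mean below those of HOXB13, FOXA1 and KRT8. The lineage factors GATA2 (87.0 and 76.3 FPKM), SPDEF (30.9 and 33.7 FPKM) and GRHL2 (28.2 and 27.7 FPKM) came below FOXA1 and HOXB13, with no overlap between the pairs of neighbours in this order. At the low end were PSCA (1.85 and 2.14 FPKM) and MSMB (1.56 and 1.60 FPKM), a secreted protein of prostate fluid, and under 1 FPKM was the ion channel TRPM8 (0.433 and 0.364 FPKM).

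Most genes that define other cell types stayed under 10 FPKM, while their shares at 1 FPKM differed from list to list. The number of cells of a type and the RNA per cell cannot be told apart in such bulk samples. Among 8 measured basal markers KRT14 and KRT17 were listed at 0 in both libraries, and only the integrins ITGA6 (12.2 and 10.8 FPKM) and ITGB4 (2.81 and 2.61 FPKM) and the linker protein DST (4.85 and 4.42 FPKM) reached 1 FPKM. Of 9 mesenchymal markers 5 reached 1 FPKM (55.6%, against 63.5% of all listed genes) and none reached 10 FPKM. Fibronectin, FN1, was highest (8.09 and 6.30 FPKM) and vimentin, VIM, was at 1.70 and 1.35 FPKM. Of 12 neuroendocrine markers 9 were under 1 FPKM, among them synaptophysin, SYP (0.355 and 0.295 FPKM), and secretogranin CHGB (0.0579 and 0.0505 FPKM). The other 3 were ENO2, neuronal enolase (47.4 and 45.5 FPKM), the adhesion protein NCAM1 (2.05 and 1.88 FPKM) and DDC, which makes dopamine and serotonin from their precursors. DDC was at 217 and 231 FPKM, and it is also on the list of androgen-repressed genes.

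Blood, vessel and organ markers completed the picture. Of 6 leukocyte markers 3 reached 1 FPKM and none reached 10 FPKM. PTPRC, the common leukocyte antigen, was at 0.842 and 1.15 FPKM and CD4 at 0.0304 and 0.0232 FPKM, while CD68, a lysosomal protein (5.47 and 5.29 FPKM), LYZ, lysozyme (3.66 and 3.51 FPKM), and CD8A (2.52 and 2.87 FPKM) were above 1. Of 5 endothelial markers EGFL7 was at 17.1 and 21.1 FPKM and the other 4, among them PECAM1 (0.696 and 0.769 FPKM), were under 1. None of the 6 liver and kidney markers reached 1 FPKM, and albumin, ALB, was at 0.225 and 0.199 FPKM.

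**Figure D1:**
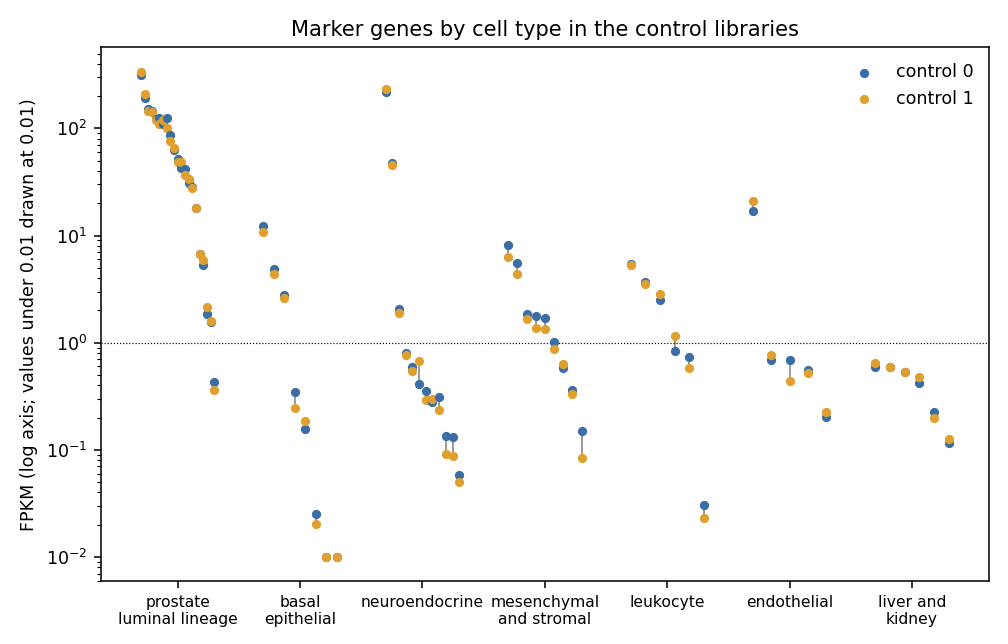
FPKM (log axis) of each measured marker gene in control 0 and control 1, grouped by the cell type it marks and ordered by level within each group; grey lines join the libraries and the dotted line is at 1 FPKM. Of the 21 luminal markers 20 lie above the line, against 3 of 8 basal, 3 of 12 neuroendocrine, 5 of 9 mesenchymal, 3 of 6 leukocyte, 1 of 5 endothelial and 0 of 6 liver and kidney markers; DDC is the highest neuroendocrine point.

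The androgen-induced kallikreins KLK2 and KLK3 were nearly absent, and 4 of 8 measured steroid hormone receptors were under 1 FPKM. The 2 that passed 10 FPKM include ESRRA, an orphan receptor (31.9 and 34.5 FPKM). The glucocorticoid receptor NR3C1 was at 1.66 and 1.81 FPKM and the progesterone receptor PGR at 1.18 and 1.22 FPKM. The estrogen receptors ESR1 (0.138 and 0.148 FPKM) and ESR2 (0.0707 and 0.0975 FPKM) were near the floor. KLK3 was at 0.152 and 0.0531 FPKM and KLK2 at 0.188 and 0.403 FPKM, both far under each of the 5 lineage markers. Of the 9 kallikrein names only KLK4 reached 1 FPKM (7.38 and 8.04 FPKM).

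Genes that androgen induces elsewhere ranged from near the floor to over 100 FPKM. Of 25 measured members 19 reached 1 FPKM (76.0%, against 63.5% of all listed genes) and 11 reached 10 FPKM (44.0%, against 30.2%), with a median of 8.85 FPKM. SORD, which makes fructose from sorbitol, was at 118 FPKM ± 3.31 (SD, n = 2) and TPD52 at 89.3 and 93.5 FPKM. The protease TMPRSS2 was at 20.5 and 19.5 FPKM and the receptor co-chaperone FKBP5 at 15.8 and 14.9 FPKM. The 6 under 1 FPKM were KLK2, KLK3, TRPM8, the metalloreductase STEAP4 (0.286 and 0.289 FPKM), the signalling inhibitor PMEPA1 (0.388 and 0.464 FPKM) and the methyltransferase GNMT (0.854 and 0.849 FPKM). No androgen-treated sample was measured, so these are levels and not responses.

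Among 10 genes known to be repressed by androgen 7 reached 1 FPKM and 5 reached 10 FPKM. After DDC came the opioid receptor OPRK1 (70.7 and 66.0 FPKM), the chemokine receptor CXCR7 (66.3 and 69.2 FPKM) and the secreted phospholipase PLA2G2A (65.5 and 69.6 FPKM), and these 3 could not be put in order, since their pairs overlapped. CCNG2, an unusual cyclin, followed at 27.0 FPKM ± 2.72 (SD, n = 2). The steroid-conjugating enzymes UGT2B11 (3.29 and 3.22 FPKM) and UGT2B28 (2.13 and 2.08 FPKM) were lower, and the remaining 3 were under 1 FPKM.

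Coregulators and chaperones of steroid receptors were abundant, and the enzymes that make androgen were mixed. All 20 coregulators and chaperones on the list reached 1 FPKM, and 17 reached 10 FPKM. HSPA8 (1387 and 1371 FPKM) and HSP90AA1 (809.8 and 847 FPKM), the cytosolic chaperones, led them, the immunophilin FKBP4 was at 85.7 and 83.7 FPKM, and the coactivator NCOA4 was at 65.2 FPKM in both. Of 16 enzymes of androgen synthesis and breakdown 8 were under 1 FPKM and 3 reached 10 FPKM, of which SRD5A3 was not the highest. SRD5A3 (15.6 and 16.0 FPKM) and SRD5A1 (5.67 and 5.84 FPKM) belong to the steroid 5-alpha-reductase family, whose type 1 enzyme makes dihydrotestosterone. AKR1C3 (0.440 and 0.425 FPKM), HSD3B1 (0.0577 and 0.109 FPKM) and HSD17B3 (0.0881 FPKM and listed at 0), enzymes of the steps before it, were all near the floor.

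The bases before the start of 3 of these genes are shown because FOXA1 and KRT8 were at like levels and KLK3 was at the floor. Each window is the 250 bases before the start in RefSeq's promoter table for GRCh38.p14, on the gene's own strand, with motifs in capitals.
FOXA1: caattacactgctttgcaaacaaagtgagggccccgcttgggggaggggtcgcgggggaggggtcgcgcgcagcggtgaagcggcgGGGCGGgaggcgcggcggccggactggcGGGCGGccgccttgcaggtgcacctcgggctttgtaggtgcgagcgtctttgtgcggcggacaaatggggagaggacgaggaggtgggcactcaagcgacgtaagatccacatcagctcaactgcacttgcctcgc
KRT8: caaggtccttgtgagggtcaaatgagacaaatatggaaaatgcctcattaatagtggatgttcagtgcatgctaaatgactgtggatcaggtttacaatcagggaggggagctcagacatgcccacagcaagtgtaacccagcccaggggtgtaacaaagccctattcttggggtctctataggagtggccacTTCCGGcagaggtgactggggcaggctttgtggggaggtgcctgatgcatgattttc
KLK3: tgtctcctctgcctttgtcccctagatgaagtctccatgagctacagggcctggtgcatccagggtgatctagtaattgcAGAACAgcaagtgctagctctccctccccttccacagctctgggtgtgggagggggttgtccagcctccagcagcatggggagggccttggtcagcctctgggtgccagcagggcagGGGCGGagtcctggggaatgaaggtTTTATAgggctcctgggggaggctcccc
The FOXA1 window (chr14:37595250-37595499, minus strand) has a CpG ratio, observed over expected from its C and G content, of 0.977, and its capitals are 2 GC boxes (GGGCGG). The KRT8 window (chr12:52926470-52926719, minus strand) has a ratio of 0.0663 and an ETS core (CCGGAA, read on the other strand). The KLK3 window (chr19:50854665-50854914, plus strand) has a ratio of 0.0438 and holds, from left to right, a half-site of the steroid response element (AGAACA), a GC box and a TATA box (TATAAA, other strand) near the start. The KRT8 and KLK3 windows were thus alike in CpG ratio, while the genes lay at opposite ends of the range of levels. Each gene has 1 window in the table, and whether these cells use that start was not tested.

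The most abundant transcripts belonged to protein synthesis. Leaving out small RNA genes, 19 of the 25 highest genes and 58 of the 100 highest were cytosolic ribosomal proteins, and the 100 highest held 28.5% of the FPKM of these genes. RPL41 (3965 and 4544 FPKM), RPS27 (2887 FPKM in both) and RPS2 (2187 and 2622 FPKM) were among them. MTRNR2L2 (4544 and 3965 FPKM) shared the place of RPL41 at the top; it is nearly identical to the mitochondrial 16S ribosomal RNA gene, so its reads are uncertain. The elongation factor EEF1A1 was at 3207 FPKM in both libraries. Of 80 ribosomal protein genes 75 reached 100 FPKM, and RPL10L and RPL3L, copies used in testis and in muscle, were at 3.29 and 4.85 FPKM and at 0.0937 and 0.0824 FPKM.

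Several of the other highest genes are not of the ribosome. GAPDH of glycolysis was at 2307 and 2445 FPKM, the growth-related protein TPT1 at 1572 and 1816 FPKM, and the ferritin heavy chain FTH1 at 1323 and 1288 FPKM. SELENBP1, a selenium-binding protein that oxidises methanethiol, was at 1338 and 1041 FPKM, a level above that of the beta-actin gene ACTB (1005 and 873 FPKM). CKB, brain-type creatine kinase, was at 747 and 739 FPKM, and NUCB2, the precursor of nesfatin, at 503 and 527 FPKM. These 3 genes thus shared the top of the range with genes that every cell uses.

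The proteasome, the mitochondrial ribosome, the respiratory chain and the tRNA synthetases were high as families, and histone genes were mixed. All 44 proteasome subunits reached 10 FPKM (median 75.6 FPKM), led by PSMB4 at 275 and 294 FPKM. Of 75 mitochondrial ribosomal proteins 74 did (median 38.9 FPKM), and of 84 respiratory chain subunits 78 (median 95.4 FPKM), led by COX7C at 1057 and 1181 FPKM. The subunits under 1 FPKM were isoforms known from muscle or testis, among them COX7A1 (0.0522 and 0.0953 FPKM) and COX6A2 (0.117 FPKM and listed at 0). All 32 aminoacyl-tRNA synthetases reached 1 FPKM, and TARS, for threonine, was highest (189 and 189.7 FPKM). Of 73 histone genes 30 reached 10 FPKM (41.1%), 17 were under 1 FPKM and a further 3 were listed at 0, with a median of 4.91 FPKM, and H2AFZ, a variant made outside S phase from a polyadenylated message, was at 615 and 607 FPKM. HIST1H4A, a replication-dependent gene of the kind whose message ends without a poly(A) tail, was listed at 0 in both.

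**Figure D2:**
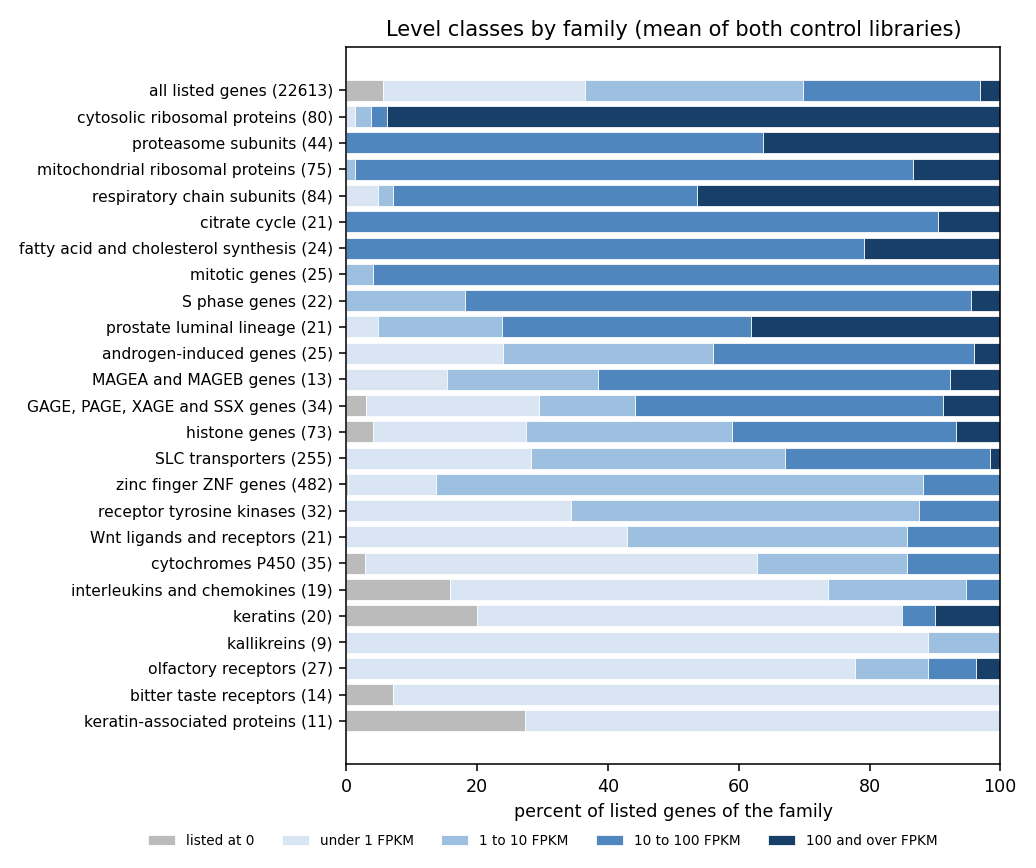
Percent of the listed members of each family in 5 level classes, by the mean FPKM of both control libraries, with the number of members in brackets. The bars run from ribosomal proteins, of which 75 of 80 reach 100 FPKM, to bitter taste receptors and keratin-associated proteins, of which none reaches 1 FPKM.

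Tissue-restricted families were low apart from single members. Of 20 keratin names 17 were under 1 FPKM, and the exceptions were KRT18, KRT8 and KRT10 (11.0 and 12.5 FPKM). Of 27 olfactory receptors 21 were under 1 FPKM, but OR51E2, long known as a prostate-specific G-protein-coupled receptor, was at 271 and 257 FPKM. OR51F1 was at 47.1 and 45.7 FPKM and OR51E1, the prostate relative of OR51E2, at 11.6 and 12.1 FPKM. None of the 14 bitter taste receptors or 11 keratin-associated proteins reached 1 FPKM. Of 15 claudins, the sealing proteins of tight junctions, CLDN7 (76.3 and 76.1 FPKM), CLDN4 (57.5 and 53.8 FPKM) and CLDN12 (34.0 and 34.2 FPKM) passed 10 FPKM and 8 were under 1 FPKM. Of 18 integrins ITGB1, the common beta chain, was highest (122 and 124 FPKM), and of 11 cadherins only CDH1 passed 10 FPKM.

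HOX genes, which give cells their position along the body, differed steeply within each measured cluster. HOXB13 stood far above the next gene of its cluster, HOXB9 (2.65 and 2.30 FPKM). In the HOXA cluster HOXA10 (22.0 and 22.5 FPKM) and HOXA13 (8.46 and 8.52 FPKM) were highest, and HOXA9, the neighbour of HOXA10, was at 0.244 and 0.529 FPKM. In the HOXC cluster HOXC6 (25.9 and 25.2 FPKM), HOXC12 (22.0 and 22.3 FPKM) and HOXC13 (11.5 and 11.6 FPKM) exceeded 10 FPKM, while HOXC9 (0.298 and 0.445 FPKM), HOXC10 (0.216 and 0.257 FPKM) and HOXC11 (0.930 and 0.898 FPKM) were under 1. HOXC8, next to HOXC9, was at 1.31 and 0.850 FPKM. HOXD genes were not analysed here.

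Other transcription factor families had a leader too. Of 26 FOX genes FOXA1 was the only member above 100 FPKM and FOXO3 (25.4 and 22.3 FPKM) was next. Of the GATA factors GATA2 was high and GATA3 (0.0219 and 0.0202 FPKM) near 0. Among 21 ETS factors EHF, an epithelial member, was at 57.5 and 55.2 FPKM and ELF3 at 16.1 and 15.2 FPKM, while ETV5 (0.154 and 0.126 FPKM) was low. SOX12 (20.9 and 19.8 FPKM) was the highest of 8 SOX factors, and SOX9, a factor of prostate development, was at 0.284 and 0.256 FPKM. The 482 ZNF zinc finger genes were of another kind: 86.3% reached 1 FPKM and 11.8% reached 10 FPKM, with a median of 3.36 FPKM.

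Cancer-testis genes, normally limited to germ cells, reached 10 FPKM more often than listed genes at large. Of 13 MAGEA and MAGEB genes 11 reached 1 FPKM (84.6%, against 63.5% of all listed genes) and 8 reached 10 FPKM (61.5%, against 30.2%). MAGEA4 was at 147 and 156 FPKM, MAGEA3 at 88.8 and 89.8 FPKM and MAGEA6 at 80.5 and 82.4 FPKM, while MAGEA11 was at 0.443 and 0.565 FPKM. Of 34 GAGE, PAGE, XAGE, SSX and CTAG genes 24 reached 1 FPKM (70.6%, near the share of all listed genes) and 19 reached 10 FPKM (55.9%). A further 9 were under 1 FPKM and 1 was listed at 0. PAGE1 was at 267 and 277 FPKM and GAGE12F at 124 FPKM ± 10.9 (SD, n = 2), but SSX1 at 0.0326 and 0.202 FPKM. Many of these X-linked genes are near-identical copies, so the split of reads among them is uncertain and their sum is the safer value. It was 510.3 and 530.4 FPKM for the MAGEA and MAGEB genes and 1193 and 1305 FPKM for the other family. The counts of members above take each copy as a separate gene.

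Genes of the dividing cell were expressed as a block. All 25 mitotic genes reached 1 FPKM and 24 reached 10 FPKM (96.0%, against 30.2% of all listed genes), with a median of 26.8 FPKM. PTTG1, securin, was at 97.5 and 91.2 FPKM, CDK1, the mitotic kinase, at 86.2 and 89.7 FPKM, and its partner CCNB1 at 70.4 and 69.2 FPKM. UBE2C, a ubiquitin-conjugating enzyme of the anaphase-promoting complex, was at 56.7 and 55.4 FPKM. MKI67, the proliferation marker with a very long message, was the lowest at 9.64 and 8.06 FPKM. All 22 S phase genes reached 1 FPKM as well, with a median of 26.9 FPKM, led by the sliding clamp PCNA, and TK1, thymidine kinase, was next at 73.9 and 68.6 FPKM.

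The second of 2 CDK1 windows in the RefSeq table (chr10:60778228-60778477, plus strand, GRCh38.p14) is shown as an example from this block. It holds CCAAT boxes and CHR elements, both known from genes of late cell cycle; the first window holds 1 of each, and the CCNB1 window holds CCAAT boxes but no CHR match.
CDK1: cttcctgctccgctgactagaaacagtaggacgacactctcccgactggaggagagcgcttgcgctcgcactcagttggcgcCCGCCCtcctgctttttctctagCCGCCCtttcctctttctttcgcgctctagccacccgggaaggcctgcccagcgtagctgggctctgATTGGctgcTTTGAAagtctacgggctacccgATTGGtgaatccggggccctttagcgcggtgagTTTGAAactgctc
Its capitals mark, from left to right, 2 GC boxes on the other strand, a CCAAT box on the other strand (ATTGG), a CHR element (TTTGAA), a further CCAAT box on the other strand and a further CHR element next to the start. A CCAAT box on either strand was in 63.3% of the 30 windows of the S phase genes, 82.1% of the 67 windows of histone genes, 33.1% of windows of matched protein-coding genes and 32.0% of all 35116 windows in the table. The mitotic list had a window for only 19 of its 25 genes (76.0%), too few to give a share.

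Among regulators of division the braking and the driving genes were both present. CDKN1A, the p21 inhibitor, was at 33.6 and 34.2 FPKM and RB1 at 11.4 and 11.3 FPKM. CDK4 (58.6 and 62.5 FPKM) and CCND1, cyclin D1 (57.6 and 51.3 FPKM), were the highest of the 16 genes of this list. E2F1, the gene that the study silenced in its remaining sample, was at 10.6 FPKM in both libraries. In the PI3K pathway AKT1 (49.2 and 47.4 FPKM) was highest of 24 genes. The phosphatase INPP4B (0.704 and 0.921 FPKM) and FOXO1 (0.179 and 0.153 FPKM) were under 1 FPKM, in contrast to FOXO3.

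Few receptors at the cell surface reached 10 FPKM. Of 32 receptor tyrosine kinases 21 reached 1 FPKM (65.6%, against 63.5% of all listed genes) and 4 reached 10 FPKM (12.5%, against 30.2%), led by ERBB2 (42.5 and 39.5 FPKM) and ERBB3 (35.1 and 32.7 FPKM). EGFR was at 1.78 and 1.54 FPKM, IGF1R at 2.18 and 2.00 FPKM and MET, the hepatocyte growth factor receptor, at 0.361 and 0.376 FPKM. Of 21 Wnt ligands and receptors 12 reached 1 FPKM (57.1%) and 3 reached 10 FPKM (14.3%). The ligand WNT5A was the highest of them (87.8 and 85.8 FPKM), and its close relative WNT5B was at 0.152 and 0.0942 FPKM. The receptor FZD6 (17.1 and 19.4 FPKM) and the co-receptor LRP5 (13.2 and 12.9 FPKM) followed. Of 19 interleukins and chemokines 14 were under 1 FPKM, CCL2, CCL3 and CXCL9 among them at 0 in both, and CXCL16 was highest (20.3 and 19.5 FPKM).

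Members of the interferon system spanned the range from near the floor to above 30 FPKM. IRF3 (32.8 and 33.3 FPKM), a factor that carries the signal of viral RNA, was the highest of 26 members, of which 9 passed 10 FPKM. JAK1, a kinase of the interferon receptors, was at 1.81 and 1.87 FPKM, below JAK2 (3.65 and 3.85 FPKM) and TYK2 (15.5 and 13.8 FPKM). The receptor chains IFNGR2 (20.8 and 22.0 FPKM) and IFNAR1 (13.0 FPKM in both) passed 10 FPKM. The measured ligands were IFNB1, interferon beta, listed at 0 in control 0 and at 0.0486 FPKM in control 1, and IFNL1 (0.127 and 0.0836 FPKM). B2M, the light chain of MHC class I, was at 305 and 342 FPKM.

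Lipid synthesis, the citrate cycle and polyamine synthesis were high as groups. All 24 genes of fatty acid and cholesterol synthesis reached 10 FPKM, with a median of 56.9 FPKM. The desaturases SCD (324 and 269 FPKM) and FADS2 (282 and 244 FPKM) and the fatty acid synthase FASN (294 and 203 FPKM) were the highest. All 21 genes of the citrate cycle reached 10 FPKM (median 55.4 FPKM), led by MDH2 (252 and 249 FPKM) and IDH1 (181 and 186 FPKM). The polyamine pathway, which supplies the spermine of prostate fluid, was high at OAZ1, an inhibitor of its entry step (589.9 and 633 FPKM), at ODC1, its entry enzyme (235 and 240.0 FPKM), and at AMD1 (164 and 163 FPKM). ARG2, the mitochondrial arginase, was at 124 and 137 FPKM and ARG1, the liver form, at 0.173 and 0.172 FPKM.

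Glycolysis and zinc handling showed a choice among isoforms. LDHA was at 232 and 298 FPKM and LDHB, the other lactate dehydrogenase chain, at 4.30 and 4.44 FPKM. HK1 (40.6 and 34.1 FPKM) exceeded HK2 (3.60 and 3.81 FPKM), and the glucose transporter SLC2A1 (9.60 and 10.4 FPKM) exceeded SLC2A3 (0.443 and 0.416 FPKM). Of 28 zinc genes 26 reached 1 FPKM. The exporter SLC30A4 (77.9 and 78.6 FPKM) was the highest transporter, the importer SLC39A1 was at 36.1 and 37.2 FPKM, and the zinc-binding metallothioneins MT2A (198 and 223 FPKM) and MT1G (107 and 104 FPKM) were above both. Of 9 measured genes known for promoter methylation in prostate cancer MGMT (18.4 and 19.2 FPKM) and RASSF1 (17.4 and 18.2 FPKM) passed 10 FPKM and AOX1 (0.0321 and 0.0355 FPKM) was lowest.

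Of the long noncoding RNAs chosen, GAS5, the host of several small nucleolar RNAs, was at 169 and 153 FPKM and NEAT1, the scaffold of paraspeckles, at 158 and 144 FPKM. MALAT1, an RNA of nuclear speckles, was at 17.1 and 13.3 FPKM. HOTAIR, transcribed from the HOXC cluster, was at 1.62 and 1.73 FPKM.

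The 2 libraries agreed closely outside small RNA genes. Since their sorted values were nearly the same, an overall shift between them could not show in these measures. An equal value at the top of the range stands largely for an equal rank. Among 14348 genes of at least 1 FPKM, 267 (1.86%) lay at least 2-fold apart, 122 higher in control 1 and 145 higher in control 0, and 221 of them were small RNA genes. Without small RNA genes 46 of 13909 (0.331%) were 2-fold apart, the median absolute log2 difference was 0.0819, and 72.3% of genes lay within 10% of each other. Pearson's r across these genes was 0.9943 and Spearman's rho 0.9935, given as a description, since the points share their library and genes are not independent. The share apart fell with level, from 1.54% of 1880 genes between 1 and 2 FPKM to 0.0251% of 3979 genes between 10 and 30 FPKM and 0 of 1917 and 0 of 594 genes in the bins from 30 and from 100 FPKM up. For a level of 10 FPKM or more a gene that is no small RNA was thus almost never 2-fold apart in these libraries. Of 10903 protein-coding genes 8 were apart (0.0734%).

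**Figure D3:**
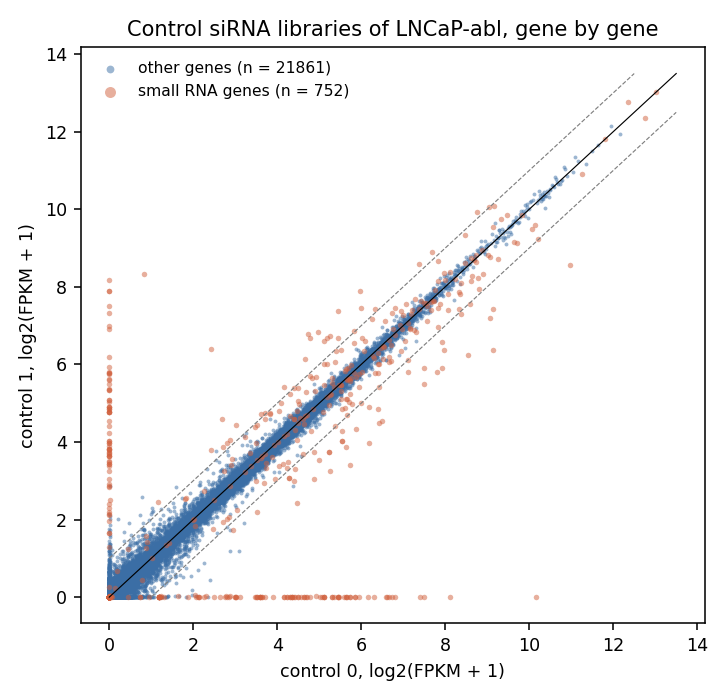
Each point is a gene, at log2(FPKM + 1) in control 0 (x axis) and in control 1 (y axis); the full line marks equal values and the dashed lines a 2-fold difference. Other genes keep to the diagonal and small RNA genes scatter to both axes.

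**Figure D4:**
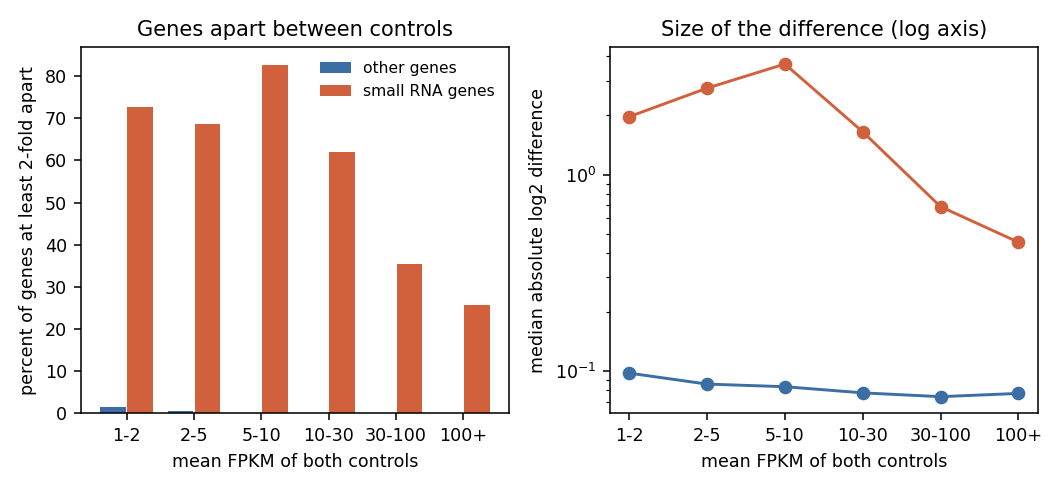
Left, percent of genes at least 2-fold apart between the controls, and right, median absolute log2 difference (log axis), by bin of mean FPKM, for small RNA genes and all other genes. The share of other genes apart is 1.54% in the lowest bin and 0 in the highest 2, while that of small RNA genes is 72.7% and 25.7% in the lowest and the highest bin.

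The genes furthest apart were low, and several overlap another listed gene. Higher in control 0 were PTCHD3P1, a pseudogene (3.22 and 0.0220 FPKM), LOC284023 (7.58 and 1.27 FPKM) and the read-through gene TGIF2-C20orf24 (6.39 and 1.29 FPKM). Higher in control 1 were SERF1A, which has a near-identical copy (0.0145 and 3.04 FPKM), and SLC37A4, the glucose-6-phosphate transporter (0.659 and 3.31 FPKM). PTCD1 (7.98 and 4.44 FPKM) and the read-through ATP5J2-PTCD1 (1.99 and 6.14 FPKM) differed in opposite directions, and their sum was 9.97 and 10.6 FPKM. BLOC1S5 (2.40 and 0.425 FPKM) and BLOC1S5-TXNDC5 (4.58 and 6.82 FPKM) did so too, with sums of 6.99 and 7.25 FPKM. In both pairs the sum was closer between the libraries than either gene, which a difference in opposite directions favours in advance. Of 55 read-through genes of at least 1 FPKM 2 were 2-fold apart (3.64%, against 0.331% of all genes without small RNA genes). The sum of ANKHD1-EIF4EBP3 (7.04 and 3.98 FPKM) with ANKHD1 (18.5 and 19.2 FPKM) was 25.6 and 23.1 FPKM, further apart than ANKHD1 itself. For TGIF2-C20orf24 the outcome depended on the partner. Its sum with TGIF2 (4.17 and 4.82 FPKM) was 10.6 and 6.11 FPKM, further apart than TGIF2 itself. Its sum with C20orf24 (61.9 and 74.3 FPKM) was 68.3 and 75.6 FPKM, closer than either gene. The sum of ATP5J2-PTCD1 with its other partner ATP5J2 (207 and 249 FPKM) was 209 and 255 FPKM, no closer than ATP5J2 alone. TMEM160, a mitochondrial protein with no partner of that kind by name, was at 4.80 and 10.5 FPKM.

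Small differences between the libraries went with the length and the GC content of the message, relations looked for after the values were seen. The 5822 protein-coding genes of at least 10 FPKM with a GENCODE transcript (99.6% of such genes) had a median difference of 0.006. Among the 1456 with the shortest longest transcript (117 to 2152 bases) it was 0.062, and 28.2% were lower in control 1. Among the 1456 with the longest (4882 to 27174 bases) it was -0.038, and 63.1% were lower in control 1. Spearman's rho between length and difference was -0.35 over all of them, and -0.18 between GC content and difference. Both relations are small beside a 2-fold difference, and their cause was not tested.

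Some gene groups leaned to a side. Of the 5822 protein-coding genes of at least 10 FPKM, 47.3% were lower in control 1. The group counts take members of at least 1 FPKM, for which such a share over all genes is not given, so they have no matching background. The leaning groups below were picked for their lean, and others were near even. Of 25 mitotic genes 13 were lower in control 1, and of 44 proteasome subunits 23. The median difference over all genes of at least 1 FPKM without small RNA genes was 0.00299. In fatty acid and cholesterol synthesis 22 of 24 members were lower in control 1, with a median of -0.15 and FASN furthest at -0.53, and in the S phase list 19 of 22 were lower (median -0.10). All 5 mesenchymal markers of at least 1 FPKM were lower in control 1 as well (median -0.22). In glycolysis 17 of 22 were higher (median 0.07; LDHA 0.36), and of 75 mitochondrial ribosomal proteins 63 were higher (median 0.07). The median longest transcript was 4432 bases in lipid synthesis, 3378 in the S phase list, 2666 among the mesenchymal markers, 2658 in glycolysis and 1727 in mitochondrial ribosomal proteins. Length and direction did not always go together: glycolysis and the mesenchymal markers have like lengths and opposite directions, and of 17 actin and tubulin genes (median 2035 bases) 13 were lower in control 1. The part of length in these group differences was not tested, and no member of these groups was 2-fold apart.

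Small RNA genes behaved unlike all others. The 752 genes named for microRNAs, small nucleolar RNAs or small nuclear RNAs held 13.8% of all FPKM, and 105 of them exceeded 100 FPKM, but 271 were listed at 0 in both libraries. Of the 439 of at least 1 FPKM, 221 (50.3%) were 2-fold apart, against 0.331% of other genes. The share was 67.0% for 206 microRNA genes, 36.6% for 123 SNORD genes and 29.1% for 86 SNORA genes. Of 747 placed by RefSeq name, 669 (89.6%) lie inside another gene, and their median length is 87 bases. FPKM divides by length, so each fragment counts for more on so short a gene.

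The microRNA genes of highest level are shown with the mature sequences that RefSeq gives for them, since a reader may wish to see which products they are named for. Capitals mark the seed, bases 2 to 8.
hsa-miR-1244: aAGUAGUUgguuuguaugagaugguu
hsa-miR-3064-5p: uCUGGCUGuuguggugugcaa
hsa-miR-3064-3p: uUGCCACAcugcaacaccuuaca
hsa-miR-5047: uUGCAGCUgcgguuguaaggu
No seed is shared among the 4. MIR1244-1 (mature at chr2:231713368-231713393, plus strand, GRCh38.p14) was at 8354 FPKM in both libraries, the highest value of all, and lies inside PTMA, the gene of prothymosin alpha (783 and 825 FPKM); the table holds 4 hairpins of the same sequence. MIR3064 (6961 and 5245 FPKM) and MIR5047 (5245 and 6961 FPKM) lie inside DDX5, an RNA helicase (175 and 163 FPKM). MIR1469 was at 1137 FPKM in control 0 and listed at 0 in control 1, while its host NR2F2, a nuclear receptor, was at 14.6 and 14.2 FPKM. The libraries were made with a kit for long RNA, so these values describe fragments over the gene and not the mature product.

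Promoter sequence varied with level across the transcriptome. Of 13654 protein-coding genes 11013 (80.7%) had a window in the RefSeq table. The median CpG ratio was 0.766 for genes of 1 to 10 FPKM, 0.827 for 10 to 100 FPKM and 0.854 from 100 FPKM up, against 0.770 over all matched protein-coding genes and 0.558 over all windows of the table. The ETS core (CCGGAA) was in 19.7%, 26.4% and 31.2% of windows of these classes, in 21.0% of those of matched protein-coding genes and in 14.5% of all. The GC box (GGGCGG) was in 60.0%, 65.8% and 68.5%, against 59.7% of matched genes and 42.6% of all, both strands searched. The class of 1 to 10 FPKM was thus near the matched genes in each of these, and the classes above it were higher. The TATA box (TATAAA) showed no such order, with 6.48%, 4.91% and 7.57%, 7.02% of matched genes and 10.7% of all. Of the protein-coding genes under 1 FPKM 75.5% had a window, and of those at 0 63.8%, so shares for these classes are void under the limit of 80% and are not given. Windows of the same gene can overlap, and a match of letters is no evidence of binding.

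**Figure D5:**
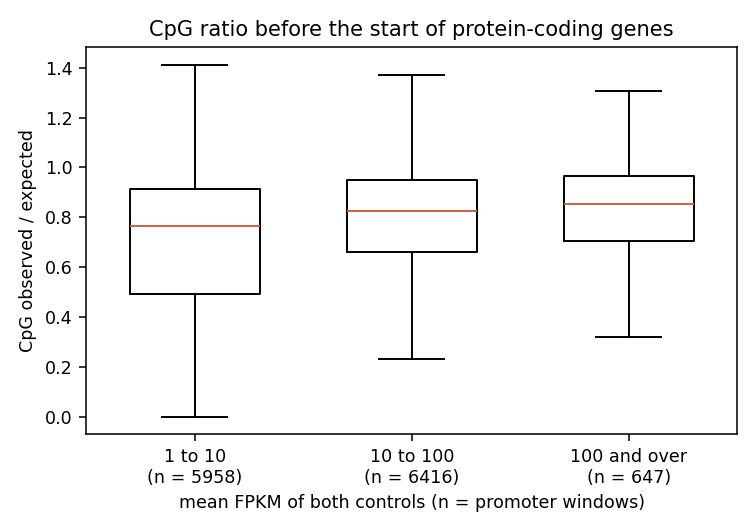
Ratio of observed to expected CpG in the 250 bases before the start of protein-coding genes, by class of mean FPKM; boxes span the middle 50% of windows, lines are medians and whiskers reach the last window within 1.5 box lengths. The medians are 0.766, 0.827 and 0.854 from the lowest class to the highest.

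Families differed in these features too. None of the 17 windows of the 9 kallikreins had a CpG ratio above 0.6, and their median was 0.183. The windows of the mitochondrial ribosomal proteins had a median of 0.861, and 43.4% of 83 held an ETS core, against 26.4% of windows of protein-coding genes of 10 to 100 FPKM, 21.0% of those of all matched protein-coding genes and 14.5% of all windows. Of the 67 histone windows 56.7% held a TATA box (7.02% of matched genes), and all 22 chaperone windows held a GC box (59.7% of matched genes). Of the kallikreins only KLK4 reached 1 FPKM, as given above, so the low ratio and low levels stood side by side in this family. The KRT8 window joined a low ratio to a high level of the gene, with the limit given above on its start.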

How the data were processed

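RNA of LNCaP-abl cells was sequenced 72 h after transfection. The 2 control libraries of the 3 in the series are used here, with groups and the numbers 0 and 1 taken from sample titles. A TruSeq RNA v2 kit was used, per the labels; it is blind to strand, so antisense and overlapping genes share reads. TopHat2 2.0.4, Cufflinks 2.0.2 and the build hg19 appear in the submitters' processing notes; not given in the sources used here are the annotation and parameters.

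The authors deposited log2 FPKM values without a header line. Their minimum equals log2 of 0.1, so FPKM was computed as 2 to the power of the deposited log2 value, minus 0.1; if 0.1 was a floor and not an added constant, each level is 0.1 FPKM too low. A value under 1e-09 FPKM was called listed at 0. Values above the minimum were identical in both libraries for 0.199% of genes, so the libraries were treated as separate. Their nearly equal sorted values look like the output of quantile normalization, a step that no label or header names. Depth is unknown and limits the precision of low genes.

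Genes were classed by the mean of both libraries at 1, 10 and 100 FPKM. Differences were taken on log2(FPKM + 1) among genes whose mean reached 1 FPKM, and 2-fold counted as apart. Members, the 40 gene lists and the 31 name families were chosen with earlier results of these data known. Named genes were the 5 markers, the 25 highest genes, up to 4 of highest level and 3 others that define it from each list, and the 10 furthest apart per direction. Further genes, such as ACTB, CKB, NUCB2, ARG1, HOXC10, COX6A2, RPL3L, BLOC1S5-TXNDC5 and the hosts of microRNA genes, are named after their values were seen. A few members are counted in their lists and not reported here. Small RNA genes were those named MIR, SNORD, SNORA, SCARNA, RNU, RNY or VTRNA, with host genes kept apart. Gene types and transcript lengths came from GENCODE, and promoter windows and microRNA sequences from RefSeq (GRCh38.p14), all matched by symbol. Python 3.11.15 with pandas 2.3.3, numpy 2.4.6 and matplotlib 3.10.9 was used, and the counting step was tested on made-up libraries. The settings varied were the minimum level, the constant, the pseudocount, the scaling, small RNA genes and each library left out.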

Additional observations from a re-analysis of the deposited data

How the results depend on the processing

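The count of genes 2-fold apart rested on small RNA genes: 267 with them, 46 without, and 122 without them at a pseudocount of 0.1 FPKM, the last setting chosen after seeing the data. Pearson's r of 0.9528 became 0.9943 without small RNA genes and 0.9043 at a pseudocount of 0.1 FPKM. Over all genes a pseudocount of 0.1 gave 347 apart, no filter 312, a minimum of 5 FPKM 184, and a common median or quantile normalization 267; these 2 scalings could hardly change the count, since the deposited values already share their median and nearly all sorted values. The count of genes of at least 1 FPKM was 14348, became 16135 and 9580 at minimums of 0.5 and 5 FPKM, 14615 without subtraction of 0.1, 13909 without small RNA genes and 14264 with either library left out. With a library left out 702 genes reached 100 FPKM, against 699. That both libraries gave the same counts was fixed in advance, since their sorted values are nearly the same. Counting values under 0.01 FPKM as 0 raised the 1254 genes listed at 0 to 1309. List medians from 1 library alone were set against the main median, with the SD of the single-library medians as the limit. Of them 113 stayed within it and 27 did not, the small RNA genes most (1.27 FPKM in control 0 and 0.00984 in control 1, against 5.38). A main median midway between the single-library medians always passes, so these counts do not measure stability. No paired analysis was possible because there is 1 group. With depth unknown, levels near the floor have no stated error, and a value of 0 in 1 library alone (1119 genes) says little.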
